A study of Mus musculus with 6 samples.

Results

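Promoter flank peaks are the open chromatin regions whose centre lay more than 1 kb and at most 5 kb from the nearest transcription start site, on either side of it. The distance was that given by the deposited peak annotation, and no accessibility value entered the choice. Of 109859 peaks, 11710 were flank peaks, 5371 upstream and 6339 downstream of their start site in the direction of transcription. They were annotated to 7601 of the 19013 genes in the table. The remaining peaks were 21892 promoter peaks, within 1 kb of a start site, and 76257 distal peaks, more than 5 kb away.

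Open chromatin was profiled with ATAC-seq, an assay that cuts and tags accessible DNA with Tn5 transposase, in primary Lin- bone marrow cells, a fraction labelled as hematopoietic stem and progenitor cells. The 2 groups were 3 wildtype mice and 3 mice with the Polycomb gene Mel18 (Pcgf2) deleted conditionally in the blood system. The question was whether loss of Mel18 alters accessible chromatin. The strain, age, Cre driver, time since deletion and deleted exons were not given in the sources used here, nor was it stated whether the wildtype mice carried Cre.

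The segment next to a promoter often holds elements that act on it from close by, such as proximal enhancers, autoregulatory elements of blood transcription factors and start sites of shorter or alternative transcripts. Downstream of the start it covers the beginning of the gene body, usually the first intron, which frequently carries enhancers. Mel18 is a subunit of Polycomb repressive complex 1, which binds CpG-rich promoters of silent developmental genes, monoubiquitinates histone H2A and compacts chromatin.

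Some flank peaks overlapped the start region of a RefSeq transcript other than the start the table measured from. Of the 11710 peaks, 153 shared at least 100 bases with a RefSeq start window, the 250 bases before and 50 after a start. They are called peaks over a RefSeq start, although a peak counted in this way need not reach the start itself. The sequences of 5 of these windows are shown where a peak described later overlaps them, each cut to the overlap with the peak. They are RefSeq sequences of the build GRCm38.p6, written 5′ to 3′ on the strand of the RefSeq gene named, with CpG dinucleotides in capitals. The first lies at chr1:177442101-177442294 (+), in the strong peak upstream of Zbtb18, and belongs to another start of Zbtb18. That peak ended before this start, so the stretch shown lies upstream of it. The second lies at chr19:56822150-56822449 (-), in the peak upstream of Tdrd1, and is the start of the neighbouring gene Ccdc186. The third lies at chr3:84814384-84814683 (-), in the peak upstream of Fbxw7, and is the start of Gm35486. The fourth lies at chr13:80885845-80886144 (+), in the strongest peak inside Arrdc3, and belongs to another start of that gene. The fifth lies at chr10:67536131-67536260 (-), in a peak upstream of Egr2, and is the start of Gm32255.
Zbtb18: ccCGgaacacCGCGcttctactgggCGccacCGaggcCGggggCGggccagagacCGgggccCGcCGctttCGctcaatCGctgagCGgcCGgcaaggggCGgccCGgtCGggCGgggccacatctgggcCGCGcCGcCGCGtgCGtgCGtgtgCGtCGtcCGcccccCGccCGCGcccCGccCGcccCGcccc
Ccdc186: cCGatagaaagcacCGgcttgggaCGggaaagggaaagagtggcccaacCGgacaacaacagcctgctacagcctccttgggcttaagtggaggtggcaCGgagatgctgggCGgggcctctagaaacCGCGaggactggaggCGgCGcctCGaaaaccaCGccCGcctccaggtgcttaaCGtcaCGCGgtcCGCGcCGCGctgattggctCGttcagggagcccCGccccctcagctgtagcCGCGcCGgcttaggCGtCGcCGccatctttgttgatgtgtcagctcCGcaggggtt
Gm35486: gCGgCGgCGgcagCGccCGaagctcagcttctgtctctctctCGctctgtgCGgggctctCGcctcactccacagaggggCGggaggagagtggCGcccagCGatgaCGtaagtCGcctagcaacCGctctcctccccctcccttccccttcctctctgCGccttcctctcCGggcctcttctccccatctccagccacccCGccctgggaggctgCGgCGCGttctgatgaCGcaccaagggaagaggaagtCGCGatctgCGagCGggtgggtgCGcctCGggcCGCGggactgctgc
Arrdc3: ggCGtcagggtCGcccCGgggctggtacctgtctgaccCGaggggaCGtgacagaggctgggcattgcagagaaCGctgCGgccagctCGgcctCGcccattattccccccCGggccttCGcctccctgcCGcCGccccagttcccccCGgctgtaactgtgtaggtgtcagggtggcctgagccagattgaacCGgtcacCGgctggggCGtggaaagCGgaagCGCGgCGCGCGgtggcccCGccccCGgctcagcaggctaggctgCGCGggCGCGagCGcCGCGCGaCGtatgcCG
Gm32255: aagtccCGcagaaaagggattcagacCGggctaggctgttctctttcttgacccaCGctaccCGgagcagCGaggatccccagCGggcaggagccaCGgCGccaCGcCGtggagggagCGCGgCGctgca

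These stretches were rich in CpG. The Zbtb18 stretch held 34 CpG dinucleotides in 194 bases, and the Ccdc186 and Gm35486 windows held 29 each in 300 bases. The Arrdc3 window held 35 in 300 bases and the Gm32255 stretch 13 in 130 bases. The median over all 32851 RefSeq start windows was 7. The GC box, a common promoter motif searched as GGGCGG on both strands, was present in the first 4 stretches and absent from the Gm32255 stretch. It was found in 35.7% of all RefSeq start windows.

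Before the comparison of genotypes, the libraries themselves differed. Peak reads totalled 12000808 to 13769335 in the wildtype and 14487908 to 16709921 in the knockout libraries, and a flank peak held a median of 43.5 to 51 reads in a wildtype and 62 to 73 reads in a knockout library. Wildtype library 3 stood apart, with a mean Spearman correlation over flank peaks of 0.837 with the other wildtype libraries. The other 5 libraries had means of 0.884 to 0.948 within their group. Between wildtype libraries 1 and 2 the value was 0.932. Wildtype libraries 1, 2 and 3 had higher means against the knockout group (0.920, 0.939 and 0.864) than within their own (0.885, 0.884 and 0.837). The own-group means of wildtype libraries 1 and 2 include library 3. Knockout libraries 1, 2 and 3 were closer to their own group (0.936, 0.948 and 0.943) than to wildtype (0.904, 0.913 and 0.906). The promoter of Kit, a stem and progenitor cell receptor, was open at 18.6 ± 1.40 CPM in wildtype and 20.1 ± 0.368 in knockout (SD, n = 3; CPM denotes peak reads scaled by TMM to a common library total). Cd3e, a T cell marker, had no promoter peak, while the promoter of the lymphocyte receptor gene Il2rb stood at 11.04 ± 3.46 and 4.84 ± 0.605 CPM.

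Flank peaks were weaker than promoter peaks and a little stronger than distal ones. The median level was 4.10 CPM upstream and 4.04 CPM downstream, against 9.22 CPM at promoters and 3.05 CPM at distal peaks. Median widths were 182 bp upstream and 181 bp downstream. Upstream, 78.2% of the peaks lay outside any annotated exon or intron and 18.8% touched an intron. Downstream, 85.2% touched an intron and 16.8% an exon.

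Peaks thinned out across the flank. Upstream, the first 500 bp beyond 1 kb held 964 peaks and the last 500 bp before 5 kb held 578. Downstream the corresponding numbers were 1339 and 600. The levels changed less, from a median of 4.67 CPM in the innermost upstream 500 bp to 3.82 CPM in the outermost, and from 4.11 to 3.64 CPM downstream. Most flank genes had a single such peak, 4919 of the 7601, while 320 had at least 4. The largest number, 9 peaks, was reached at Acot7, an acyl-CoA thioesterase gene, at Adcy7, an adenylyl cyclase gene, at Kdm6b, which encodes an H3K27 demethylase, and at Nr3c1, the glucocorticoid receptor gene. Protein-coding genes were the nearest gene for 84.1% of flank peaks and lncRNA genes for 7.16%, close to the 83.6% and 8.26% of all peaks.

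**Figure D1:**
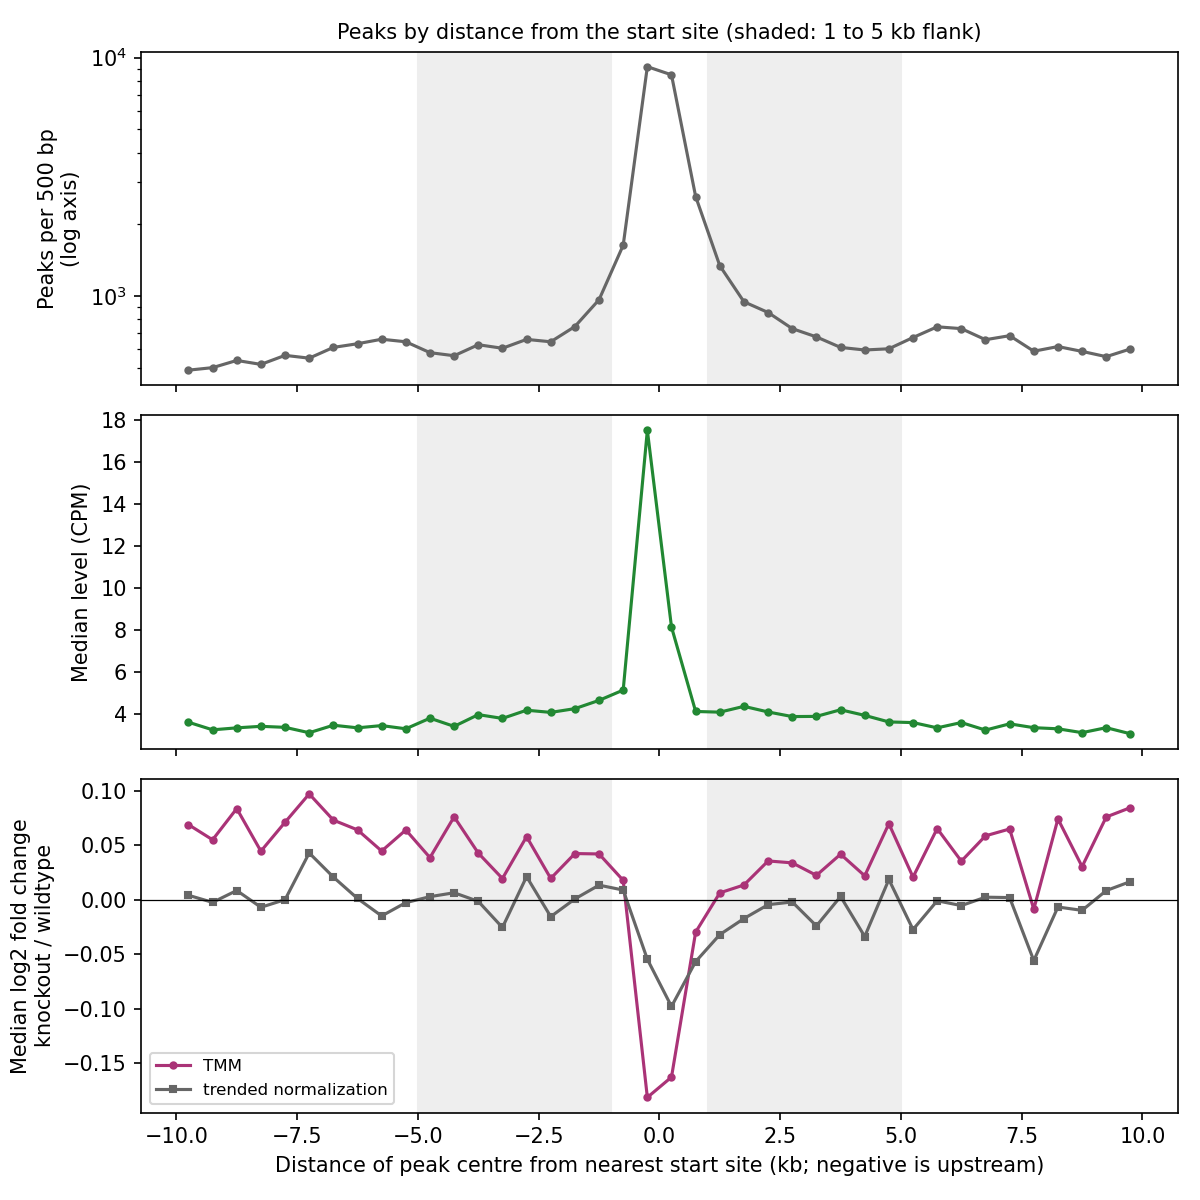
Peaks per 500 bp (top, log axis), median level in CPM (middle) and median log2 fold change of knockout over wildtype (bottom) against the distance from the nearest start site, with the flanks shaded. The dip in fold change, to -0.18 just upstream of the start site with TMM scaling, had ended within the shaded areas, where every 500 bp bin had a median between 0.01 and 0.08 with TMM scaling.

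The peaks at the edges of the definition give its limits. Upstream, St3gal4 at -1000 bp was just too close, with a log2 fold change (knockout over wildtype) of -0.35 and an SE of 0.21, and Herc3 at -1001 bp was just inside, with -0.30 ± 0.30. Downstream the corresponding peaks were Iscu at 1000 bp with -0.32 ± 0.15 and Plekho2 at 1001 bp with 0.29 ± 0.20. At the outer edge, Spag6l at -5000 bp had 0.09 ± 0.34 and Zfp949 at -5001 bp -0.04 ± 0.26, while Nudt6 at 5000 bp had -0.14 ± 0.28 and Zfp65 at 5001 bp -0.22 ± 0.15.

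As a class, the flanks took a larger part of the peak reads in knockout than in wildtype cells. Upstream flank peaks held 3.72%, 3.86% and 3.62% of the peak reads in wildtype libraries 1, 2 and 3. In the knockout libraries they held 3.97%, 3.99% and 3.93%. The groups did not overlap, with means of 3.73% ± 0.123 and 3.96% ± 0.0272 (SD, n = 3). Downstream flank peaks held 4.30%, 4.47% and 4.15% in wildtype and 4.62%, 4.57% and 4.49% in knockout libraries. Again every knockout library was above every wildtype library, with means of 4.31% ± 0.162 and 4.56% ± 0.0660. With 3 libraries a group, an exact permutation test cannot give a p below 0.1, so no test was made. The share of distal peaks was also higher, 38.1% ± 1.44 against 41.3% ± 0.363, and that of promoter peaks lower, 53.9% ± 1.704 against 50.2% ± 0.284.

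The same shift was present when flank and promoter of the same genes were compared. In the 5224 genes with both, flank peaks held 33.3, 35.4 and 30.8 reads per 100 promoter reads in the wildtype libraries. The knockout libraries had 37.5, 37.1 and 36.8. All 3 knockout values lay above all wildtype values, with means of 33.2 ± 2.27 and 37.2 ± 0.348. The balance between the sides did not separate the groups: there were 86.4, 86.4 and 87.2 upstream reads per 100 downstream reads in wildtype and 85.7, 87.2 and 87.5 in knockout. Total peak reads separated the groups in the same way as these shares, and their part in the result was not tested. In bulk cells, fewer cells of a type and a less open site per cell cannot be told apart.

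**Figure D2:**
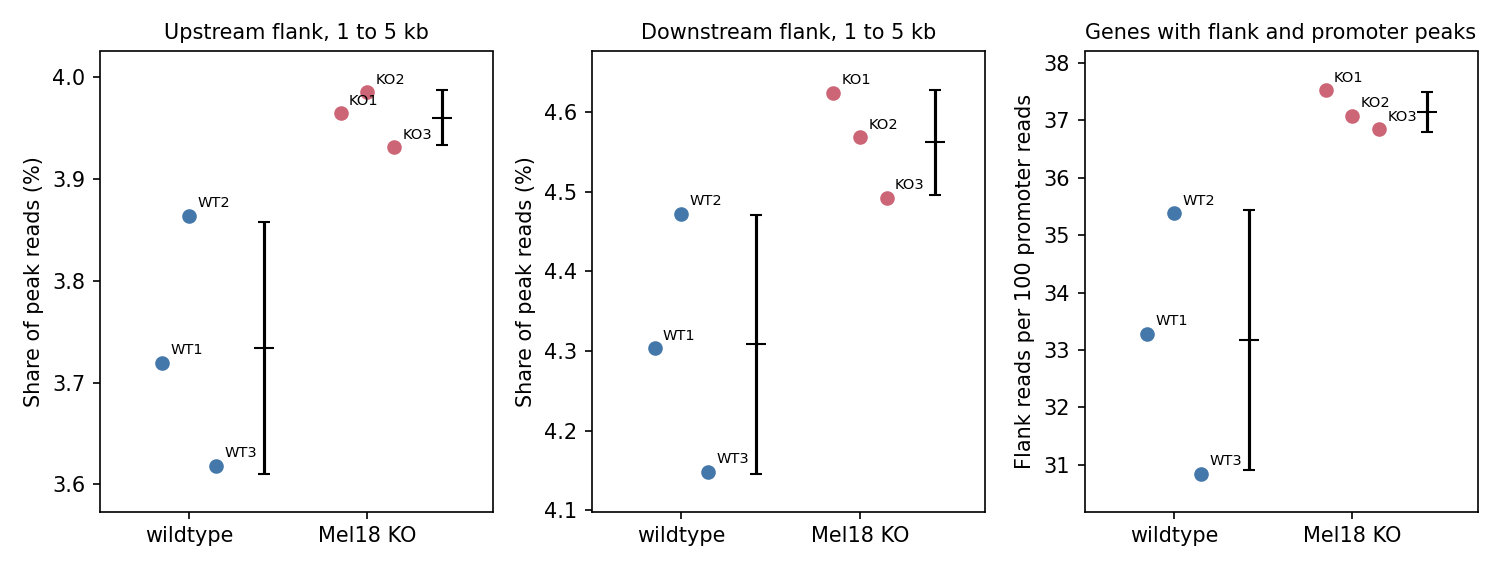
Share of peak reads in upstream and downstream flank peaks (%), and flank reads per 100 promoter reads in genes with both, 1 point per library, with the group mean and SD beside the points. The knockout libraries lay above the wildtype libraries in all 3 panels, and wildtype library 3 was the lowest point in each; the vertical axes do not start at 0.

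Peak by peak, no flank peak passed an adjusted p of 0.05 in edgeR's quasi-likelihood test with Benjamini-Hochberg adjustment, 0 higher and 0 lower, as for all peaks of the table (0.0% called in each direction). The smallest adjusted p of a flank peak was 0.0578. At an unadjusted p under 0.05, 185 upstream peaks were higher (3.44%) and 152 lower (2.83%), and 173 downstream peaks were higher (2.73%) and 177 lower (2.79%). The shares over all peaks were 3.1% higher and 5.97% lower, at promoters 1.11% and 19.1%, and at distal peaks 3.68% and 2.68%. The share of lower peaks was thus smaller in the flanks than over all peaks, but close to that of distal peaks. Together, 358 flank peaks were higher and 329 lower, a split that became 762 and 121 when libraries were scaled by size alone (over all peaks 6.52% and 2.72%), which moved the median of all peaks from 0.02 to 0.14.

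In limma-voom 6 flank peaks passed an adjusted p of 0.05, all lower in knockout (0.0512%, against 0.275% lower and 0.00091% higher over all peaks). With DESeq2 size factors in edgeR 12 passed, all lower (0.102%, against 0.424% lower and 0.00182% higher). DESeq2's Wald test called 0, but gave an adjusted p for 202 flank peaks and 5493 of all peaks. Without wildtype library 3, 26 were higher and 173 lower (0.222% and 1.48%, against 0.29% and 2.45% of all peaks), and without wildtype library 2, 9 were lower (0.0769%, against 0.485% lower and 0.00091% higher over all peaks). Leaving out any other single library gave 0. Counting peaks whose groups do not overlap, 923 flank peaks were higher in every knockout library (7.88%, against 7.63% of all peaks) and 613 lower (5.23%, against 8.01%). Among distal peaks these shares were 8.73% and 3.97%. The authors' deposited table held no flank peak past an adjusted p of 0.05.

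Median fold changes were near 0 on both sides. They were 0.04 upstream and 0.03 downstream on the log2 scale, between those of promoter peaks (-0.15) and distal peaks (0.07), beside 0.02 for all peaks. Distance made little difference within the flank. The 4 successive 1 kb bins upstream had medians of 0.04, 0.03, 0.03 and 0.05. Downstream they had 0.01, 0.04, 0.03 and 0.04. The bin from 1 to 2 kb downstream, next to the promoter, was the only one of the 8 with more lower than higher peaks at an unadjusted p under 0.05, 85 of 2284 (3.72%) against 58 (2.54%).

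The level of a peak went with its fold change. All peaks were split into 10 equal groups by mean level, and in the weakest group the median log2 fold change was 0.19 upstream and 0.16 downstream. In the strongest, above 19.6 CPM, it was -0.15 upstream and -0.13 downstream. In that strongest group, 66 of 360 upstream peaks (18.3%) and 66 of 377 downstream peaks (17.5%) were lower at an unadjusted p under 0.05, while 2 and 0 were higher. Of the promoter peaks in the same group 50.3% were lower, and of the distal peaks 12.2%. By level, the medians of distal peaks ran from 0.20 to -0.11, and those of promoter peaks from 0.03 to -0.25. At every level the flank medians lay closer to those of distal than of promoter peaks. A trended normalization, which removes for each library any smooth drift with level, brought the strongest group to 0.02 on both sides and left 250 flank peaks above and 303 below at that p (over all peaks 2.26% and 3.38%). Promoter peaks then had medians of -0.17 in the weakest and -0.04 in the strongest group.

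**Figure D3:**
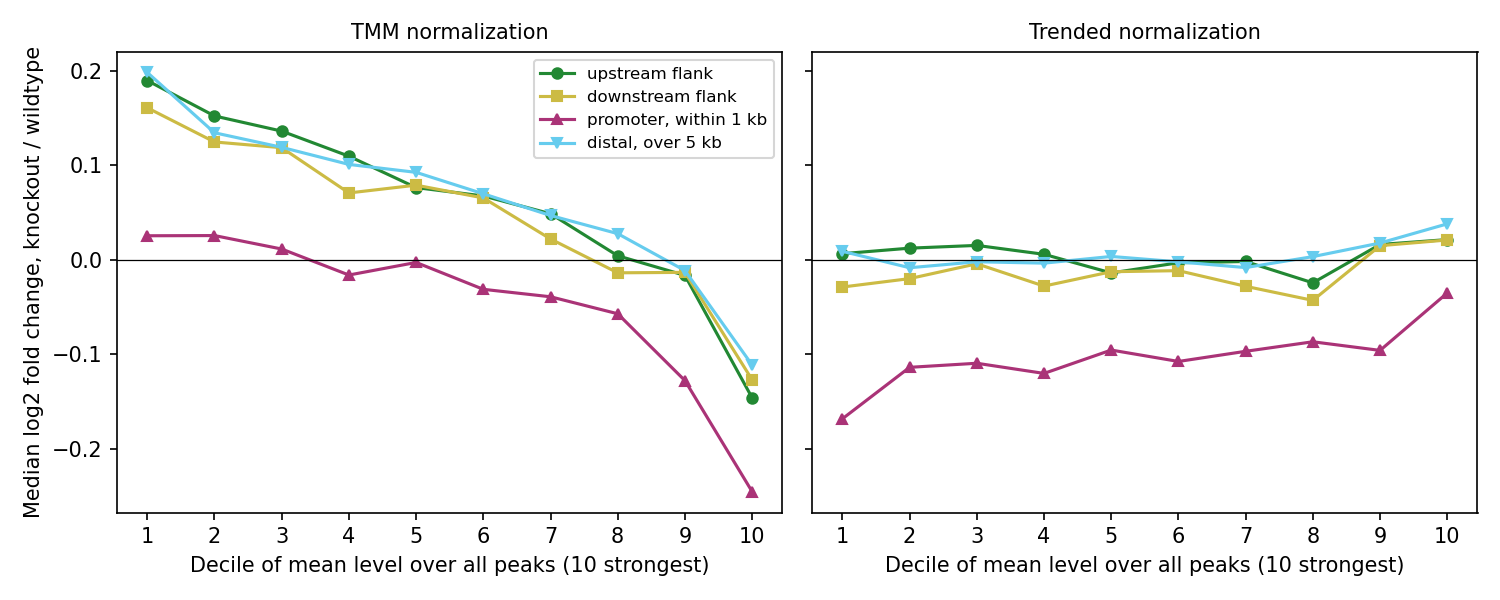
Median log2 fold change of knockout over wildtype in 10 groups of peaks by mean level, for upstream and downstream flank, promoter and distal peaks, with TMM scaling (left) and trended normalization (right). With TMM scaling the flank medians fell by level from 0.19 and 0.16 to -0.15 and -0.13, and with trended normalization all flank medians lay between -0.04 and 0.02.

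The flank peaks with the smallest p among those lower in knockout were strong, each in the strongest level group. The smallest was inside Impact, which encodes an inhibitor of the kinase Gcn2, in an intron 1877 bp downstream of the start (chr18:12973674-12974583). It stood at 196.7, 185.7 and 167.4 CPM in the wildtype and 134.4, 124.5 and 118.9 CPM in the knockout libraries. The groups did not overlap. The log2 fold change was -0.54 ± 0.07 (SE, adjusted p = 0.0578), and -0.20 with trended normalization, beside a promoter peak of 15.5 and 13.2 CPM in wildtype and knockout.

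Upstream, the smallest p belonged to a peak at -1034 bp of Larp1b, a La-related RNA-binding protein gene (chr3:40949253-40949941). Its wildtype libraries stood at 210.0, 185.9 and 176.9 CPM and its knockout libraries at 144.4, 142.0 and 146.1 CPM, without overlap. Its log2 fold change was -0.41 ± 0.07 (adjusted p = 0.0606) and fell to -0.05 with trended normalization, beside a promoter peak of 7.45 and 8.47 CPM. Zbtb18, a zinc finger repressor gene, had a peak at -2743 bp (chr1:177441542-177442294) that overlapped the CpG-rich start window printed first. It stood at 205.3, 191.9 and 197.2 CPM in wildtype and 164.5, 151.9 and 152.1 CPM in knockout. This was again a separation of the groups, -0.34 ± 0.06 (adjusted p = 0.0606), and the sign turned to 0.02 with trended normalization. No promoter peak was annotated to Zbtb18.

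The Tdrd1 peak at -3851 bp (chr19:56822085-56822630) covered the start of Ccdc186, so the nearest start in the table, that of a gene of the germline piRNA pathway, was not the start it lay on. It stood at 67.2, 65.5 and 60.8 CPM in wildtype and 42.5, 47.2 and 45.4 CPM in knockout. Every wildtype library was above every knockout library, by a log2 fold change of -0.52 ± 0.09 (adjusted p = 0.0621), and -0.30 remained with trended normalization. Fbxw7 encodes the substrate receptor of a ubiquitin ligase that degrades cyclin E, Myc and Notch, and its peak at -1133 bp (chr3:84814174-84814714), over the start of Gm35486, had 163.2, 155.9 and 132.9 CPM in wildtype. The knockout libraries had 113.1, 110.4 and 112.2 CPM, all lower. The log2 fold change was -0.43 ± 0.08 (adjusted p = 0.0634) and -0.11 with trended normalization.

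Sesn3, a stress-responsive sestrin gene, had a peak at -1143 bp with the largest fold change among these 10, -0.62 ± 0.12 (adjusted p = 0.0668). It stood at 71.2, 54.4 and 56.1 CPM in wildtype and 40.7, 40.6 and 36.5 CPM in knockout, without overlap, and -0.42 remained with trended normalization. Its promoter peak was stronger, at 136.1 and 116.8 CPM (-0.22 ± 0.07, adjusted p = 0.264). The strongest peak inside Arrdc3, an alpha-arrestin gene (chr13:80885412-80886369, 2469 bp downstream and over the start printed above), stood at 241.5, 231.7 and 230.4 CPM in wildtype. In knockout it stood at 190.9, 187.7 and 199.8 CPM, all below. Its log2 fold change was -0.28 ± 0.05 (adjusted p = 0.0668), or 0.10 with trended normalization, so its direction depended on the scaling. The Arrdc3 promoter peak stood at 60.1 and 45.3 CPM, with a more negative log2 fold change of -0.41 ± 0.12 (adjusted p = 0.275). The other 3 of the 10 were in Pnrc1, a nuclear receptor coactivator gene, Chd2, a chromodomain helicase gene, and Fdft1, the squalene synthase gene, with log2 fold changes of -0.41 ± 0.07, -0.36 ± 0.07 and -0.35 ± 0.07 (adjusted p = 0.0606, 0.0688 and 0.0842) and non-overlapping groups. With trended normalization those 3 were at -0.11, -0.02 and -0.06. The Pnrc1 promoter peak stood at 151.7 and 125.5 CPM (-0.27 ± 0.07, adjusted p = 0.175) and that of Chd2 at 16.7 and 20.9 CPM (0.32 ± 0.17, adjusted p = 0.629), while Fdft1 had none. Without wildtype library 3 all 10 passed, with adjusted p from 7.81e-05 for Impact to 0.0116 for Arrdc3.

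Other strong flank peaks were lower without reaching these p-values. Per1, a circadian clock gene, had a peak at -3942 bp with 172.1, 198.4 and 150.6 CPM in wildtype and 150.3, 153.2 and 129.3 CPM in knockout. Crlf2, the gene of the thymic stromal lymphopoietin receptor, held the strongest flank peak downstream, with 347.6, 324.6 and 245.5 CPM against 255.0, 261.6 and 253.7 CPM. In both the groups overlapped, and the adjusted p-values were 0.431 and 0.499. The Jund peak at 1193 bp downstream, in an exon of this AP-1 subunit gene, had 224.1 ± 10.1 and 199.3 ± 11.2 CPM with no overlap (adjusted p = 0.388). With trended normalization all 3 turned positive, to 0.08, 0.16 and 0.21.

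The 10 flank peaks with the smallest p among those higher in knockout were weak, at most 2.22 CPM on average in wildtype. Upstream they were nearest to Tgtp2, an interferon-inducible GTPase gene, to Aloxe3, an epidermal lipoxygenase gene, and to Pnpla5, Smpdl3a and Tmem223. The Tgtp2 peak at -4348 bp (chr11:49068473-49068647) stood at 0.797, 0.941 and 1.12 CPM in wildtype and 2.32, 2.44 and 2.83 CPM in knockout. The groups were apart by a log2 fold change of 1.39 ± 0.34 (adjusted p = 0.142), which remained at 1.26 with trended normalization. Downstream they were nearest to Fstl1, a secreted glycoprotein gene, and to 4 miRNA genes, of which the peak of Mir467f (chr18:52900073-52900296) had the smallest p. That peak, in an intron of Sncaip, stood at 1.68, 1.28 and 1.64 CPM in wildtype and 3.42, 4.16 and 4.50 CPM in knockout. It gave a log2 fold change of 1.38 ± 0.29 (adjusted p = 0.0951). The 10 had log2 fold changes from 1.08 (Aloxe3) to 1.99 (Fstl1), adjusted p up to 0.245, and no overlap of groups. Without wildtype library 3, Tgtp2 and Mir467f passed, with adjusted p = 0.0378 and 0.0150.

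Flank peaks over a RefSeq start had a median fold change close to that of promoter peaks, a comparison chosen after the values were seen and made with a table of starts that is not complete. The 153 peaks had a median level of 12.6 CPM and a median log2 fold change of -0.15. At an unadjusted p under 0.05, 26 of them were lower and none higher (17.0%, against 5.97% lower over all peaks). The 11514 flank peaks over no RefSeq start had a median of 0.04, with 302 lower (2.62%) and 358 higher. Among peaks of the strongest level group, the 50 over a start had a median of -0.24, the 685 over none -0.13 and promoter peaks -0.25. In the next group the medians were -0.12 for 40 peaks, -0.01 for 1424 and -0.13. With trended normalization the 153 had a median of -0.06 with 3 lower and 2 higher, where 3.38% of all peaks were lower and 2.26% higher. With library size alone it was -0.03 with 7 lower, where 2.72% of all peaks were lower. Without wildtype library 3 the median was -0.06 with 35 lower, where 8.44% of all peaks were lower. Leaving out knockout library 2 or 1 gave 14 or 17 lower. All peaks then had 4679 or 4491 lower, against 6558 with every library, so the background moved in the same direction.

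Their reads also moved against the rest of the flank. The 153 peaks held 0.343%, 0.338% and 0.342% of the peak reads in wildtype and 0.326%, 0.320% and 0.317% in knockout, so every knockout library was lower. Flank peaks over no start held 7.66%, 7.97% and 7.40% in wildtype and 8.24%, 8.21% and 8.08% in knockout, every knockout library being higher. Peaks over a start with more CpG were also the stronger ones. The 79 whose window held at least 12 CpG dinucleotides, the median, had a median level of 18.4 CPM, a median log2 fold change of -0.17 and 22 lower peaks (27.8%). The 74 with fewer had 6.13 CPM, -0.03 and 4 lower peaks (5.41%, against 5.97% over all peaks). With trended normalization the medians lay closer together, at -0.08 and -0.04, and CpG content and level were not separated.

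The windows under flank peaks had fewer CpG dinucleotides than those under promoter peaks, a median of 12 against 22 in 300 bases. A GC box was found in 45.4% of the 152 windows under flank peaks, 68.0% of the 11294 under promoter peaks and 35.7% of all windows, searched on both strands. The CCAAT box, searched as CCAAT, was about equally frequent, at 36.2%, 38.7% and 37.4%. The GATA motif AGATAA, bound by GATA factors, was found in 10.5%, 5.42% and 11.2%, and the ETS motif CCGGAAGT in 3.29%, 9.13% and 3.89%.

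Strong flank peaks often had no promoter peak, or only weaker ones, annotated to their gene. This does not mean that no promoter lay under them. The Tdrd1 peak, whose annotated gene had no promoter peak, covered the RefSeq start of Ccdc186. The Zbtb18 peak, also of a gene without a promoter peak, overlapped a RefSeq start window but ended before the start. In the strongest level group, 159 of the 737 flank peaks belonged to genes without any promoter peak in the table, and 325 were stronger than every promoter peak of their gene. The median log2 fold changes were -0.18 and -0.14, with 42 (26.4%) and 63 (19.4%) lower peaks, against 17.9% of the 737. The other 253, weaker than a promoter peak of their gene, had -0.09 and 27 lower peaks (10.7%). With trended normalization the 3 medians were -0.03, 0.02 and 0.04, so the sign turned in all but the first set.

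At 10 listed loci of regulators of blood formation no flank peak had an adjusted p under 0.653. Of these 10 loci, 9 had 14 flank peaks in all, and Kit had none. Their levels ran from the weakest of the 10 level groups to the ninth. Mpo, the myeloperoxidase gene of granulocyte precursors, had a peak at -3494 bp with 7.79, 11.4 and 6.41 CPM in wildtype and 12.5, 12.6 and 9.65 CPM in knockout. The groups overlapped, with a log2 fold change of 0.44 ± 0.25 (adjusted p = 0.653), and the promoter peak went from 5.37 to 9.88 CPM (0.88 ± 0.24, adjusted p = 0.190). Tal1, a stem cell and erythroid transcription factor gene, had 6.11, 6.67 and 5.44 CPM against 7.19, 7.59 and 9.004 CPM at -3588 bp, without overlap (0.38 ± 0.22, adjusted p = 0.666). Its peak at 4957 bp stood at 4.48 ± 0.880 and 4.58 ± 0.253 CPM.

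The peak at -3557 bp of Gata1, the erythroid and megakaryocyte regulator, showed the spread of the wildtype group. It stood at 3.10, 3.93 and 10.4 CPM in wildtype and 4.98, 3.69 and 3.54 CPM in knockout, so wildtype library 3 alone was high. The log2 fold change of -0.52 ± 0.41 (adjusted p = 0.781) became 0.22 without that library. The other Gata1 peak, at 3987 bp, had the largest fold change of the 14, in the other direction. It stood at 0.620, 1.37 and 0.298 CPM in wildtype and 1.27, 1.32 and 1.16 CPM in knockout, overlapping (0.73 ± 0.50, adjusted p = 0.740). Gfi1b, a repressor of the same lineages, had 3.01, 6.24 and 12.3 CPM in wildtype at 4874 bp, again highest in library 3, and 8.23, 7.26 and 4.82 CPM in knockout. Spi1, the gene of the myeloid factor PU.1, had 6.93 ± 0.264 and 8.43 ± 1.10 CPM at 4775 bp with no overlap (0.28 ± 0.21, adjusted p = 0.769). In Spi1 the peak at 1584 bp was lowest in wildtype library 3, at 2.61 CPM beside 5.58 and 6.16. Gata2, Hhex, Il7r and Meis1 had flank peaks with log2 fold changes from -0.43 to 0.50 and overlapping groups, and the adjusted p over the 14 peaks ran from 0.653 to 0.988.

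**Figure D4:**
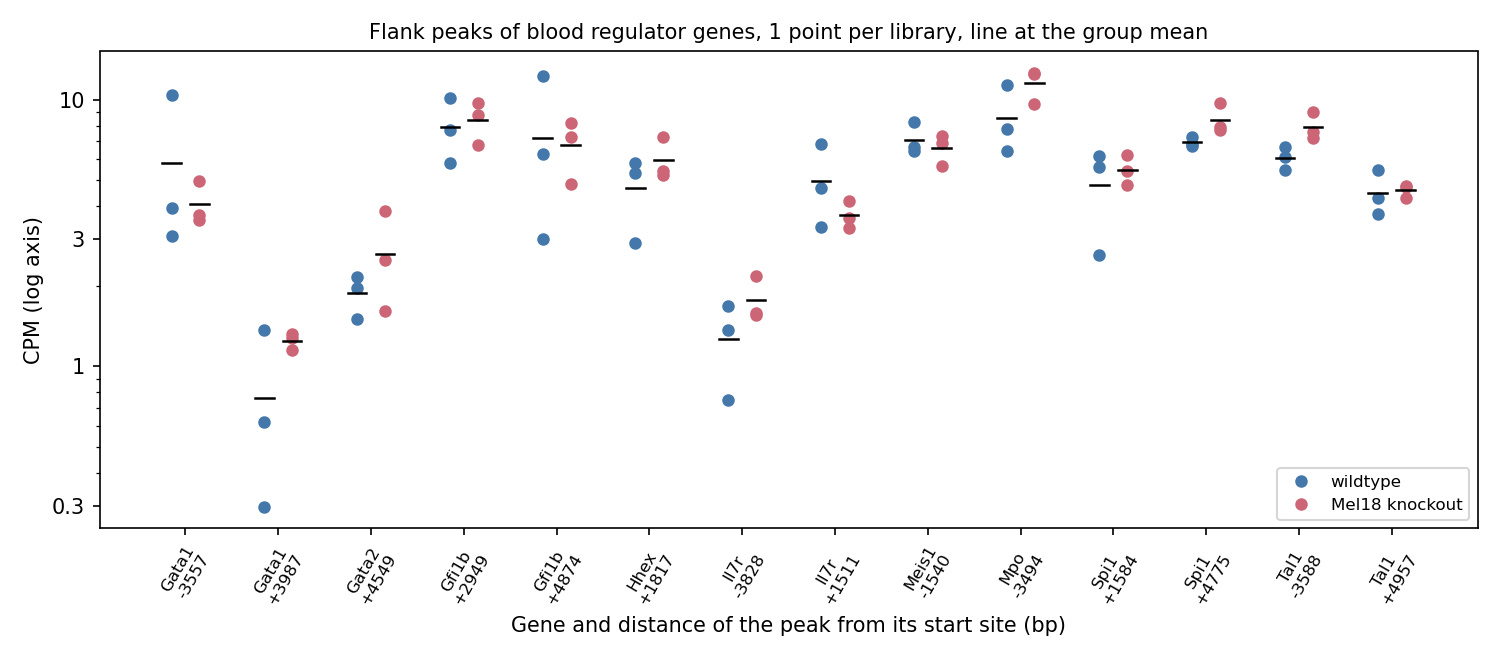
CPM (log axis) of the 14 flank peaks of blood regulator genes, 1 point per library, with a line at each group mean. Most groups overlap, and the spread of the wildtype points at Gata1 -3557 and Gfi1b +4874 runs from 3.10 to 10.4 and from 3.01 to 12.3 CPM.

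Hlf, a transcription factor gene used as a stem cell marker, had a flank peak 2650 bp downstream, in its intron, that was higher in every knockout library. It stood at 2.30, 2.48 and 1.94 CPM in wildtype and 4.23, 4.55 and 4.18 CPM in knockout. The log2 fold change was 0.95 ± 0.27 (adjusted p = 0.218), and 0.86 with trended normalization, while the promoter peak of Hlf stood at 15.5 and 12.2 CPM (-0.34 ± 0.21). Of 37 stem cell genes 28 had 52 flank peaks, of which 2 were higher at an unadjusted p under 0.05 (3.85%, against 3.1% over all peaks) and 0 lower, with a median of 0.02. With trended normalization 2 were higher and 2 lower, with a median of -0.04.

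Lineage lists differed in how far they depended on wildtype library 3. Myeloid genes had 43 flank peaks, with none past an unadjusted p of 0.05, a median log2 fold change of 0.19 and a summed level of 308.3 and 348.4 CPM in wildtype libraries 1 and 2 but 190.4 CPM in library 3. The knockout libraries held 299.1 to 317.5 CPM. Erythroid genes had 31 flank peaks, none past that p, a median of -0.18, and 160.0, 190.8 and 336.4 CPM in wildtype against 166.7 to 261.0 CPM in knockout. Library 3 was thus the lowest of the 6 for myeloid and the highest for erythroid flank peaks. Megakaryocyte (21 peaks), B cell (23), mast cell, basophil and eosinophil (13) and interferon response (21) genes had none past that p in either direction. The Polycomb list had 31 flank peaks with 1 lower, at Bcorl1, a variant PRC1 subunit gene, with 51.6 ± 6.43 and 42.4 ± 2.11 CPM (adjusted p = 0.466). Macrophage and dendritic genes had 1 higher of 28 (3.57%), and stromal and endothelial genes 1 higher and 1 lower of 27 (3.70% each). Cell cycle and p53 genes had 1 and 1 of 41 (2.44% each), and developmental factor and Hox genes 2 higher of 26 (7.69%). A list of 24 loci with known elements near their promoters, overlapping the stem list, had 2 higher and 0 lower of 40. Over all peaks 3.1% were higher and 5.97% lower at that p, and counts this small did not set these lists apart.

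T and NK cell genes had the lowest median of the lists. Of 30 genes 15 had 21 flank peaks, and at an unadjusted p under 0.05 lower values were found at 7 and higher ones at 0 (33.3%, against 5.97% lower over all peaks), with a median log2 fold change of -0.46. None passed the adjusted threshold, and the groups overlapped at all 7. Their summed level was 168.3, 139.9 and 179.9 CPM in wildtype and 110.7, 130.8 and 124.6 CPM in knockout. The 7 were at Klrk1, the gene of the receptor NKG2D, at the cytotoxic granule genes Nkg7, Prf1 and Gzma, at Il2rb, an interleukin receptor chain gene, and at the T cell surface genes Cd2 and Cd3d. Klrk1 at -3780 bp stood at 3.28, 1.97 and 7.01 CPM in wildtype and 1.39, 2.11 and 1.61 CPM in knockout, with wildtype library 3 far the highest. Nkg7 at 1707 bp stood at 14.96, 8.55 and 16.6 against 5.68, 7.32 and 10.1 CPM. The count of 7 was 7 with trended normalization too (3.38% of all peaks lower). It was 6 in DESeq2's Wald test (4683 of all peaks lower) and 5 in limma-voom (6235 of all peaks lower). It was 10 without wildtype library 2, where 9465 of all peaks were lower. Without wildtype library 3 it was 2, where 8.44% of all peaks were lower. Without any other single library it was 2 to 4, where 4491 to 6429 of all peaks were lower. With scaling by library size alone it was 3, where 2.72% of all peaks were lower. Lineage depletion is meant to remove mature blood cells, T cells among them. Of these 7 genes, 5 also had promoter peaks at a lower mean CPM in knockout (Il2rb, Nkg7, Cd2, Gzma and Prf1). The Nkg7 promoter differed little (-0.15 ± 0.22). The Klrk1 promoter peak was higher in knockout, at 1.44 CPM in wildtype and 2.14 CPM in knockout, and Cd3d had no promoter peak. The part of cell content in the result was not tested.

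AP-1 and immediate early genes, induced within minutes of a stimulus, had 52 flank peaks at 21 of 24 genes. At an unadjusted p under 0.05, 8 of these were lower and none higher (15.4%, against 5.97% lower over all peaks), with a median log2 fold change of -0.10, and none passed the adjusted threshold. The lower peaks were at Egr2, Nr4a3, Jund, Zfp36, Ier2 and Fosb, with a pair each at Egr2 and Zfp36. The Egr2 peak at -1038 bp (chr10:67536754-67536908) had the largest change, from 6.11, 5.22 and 5.29 CPM in wildtype to 2.20, 3.43 and 2.44 CPM in knockout. Its groups did not overlap, with a log2 fold change of -1.04 ± 0.27 (adjusted p = 0.167), or -1.12 with trended normalization, and the Egr2 promoter stood at 23.2 CPM in both groups. The second Egr2 peak, at -1707 bp and over the start of Gm32255, stood at 14.3, 16.1 and 13.8 CPM against 8.92, 11.3 and 12.3 CPM (-0.44 ± 0.20, adjusted p = 0.542), again without overlap.

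The other 6 lower peaks of this list were in the strongest level group, where 17.9% of all flank peaks were lower, and 2 of them, at Nr4a3 and Jund, changed sign with trended normalization. Nr4a3 at -2121 bp stood at 155.8 ± 8.61 and 129.2 ± 8.37 CPM, a log2 fold change of -0.27 ± 0.07 (adjusted p = 0.180), and at 0.06 with trended normalization. Zfp36 at -3923 bp, near the gene of an mRNA decay factor, stood at 93.1, 88.8 and 56.7 CPM in wildtype and 64.7, 57.3 and 56.6 CPM in knockout, where wildtype library 3 lay with the knockout libraries. With trended normalization 1 of the 52 was lower, 2 were higher, and the median was -0.01. The count of 8 lower peaks became 17 without wildtype library 3 (where 8.44% of all peaks were lower). It was 2 or 4 without any other single library, where 4491 to 9465 of all peaks were lower. In limma-voom it was 6 (6235 of all peaks lower) and in DESeq2's Wald test 3 (4683 of all peaks lower). With scaling by library size alone it was 2, where the median of the list was 0.02 and 2.72% of all peaks were lower.

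**Figure D5:**
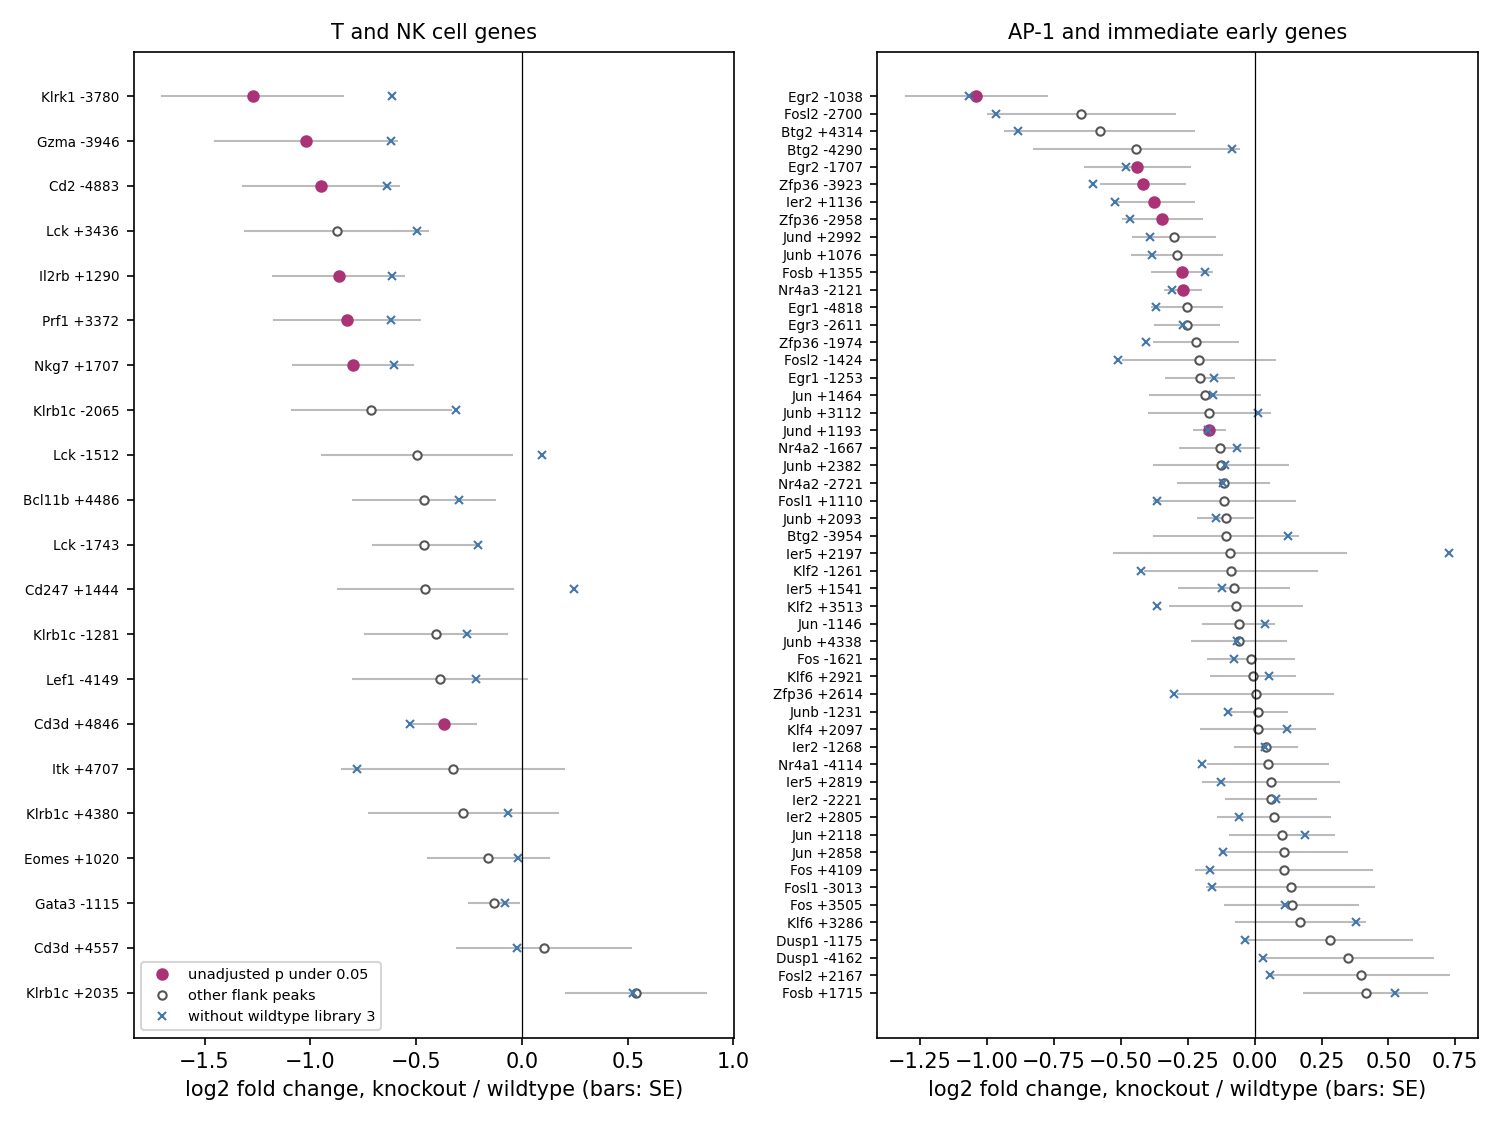
Log2 fold change of knockout over wildtype with its SE for each flank peak of T and NK cell genes (left) and of AP-1 and immediate early genes (right), with the value without wildtype library 3 as a cross. Of 21 T and NK peaks 19 lay below 0, and at Klrk1 the value moved from -1.27 to -0.62 without that library; of 52 AP-1 peaks 34 lay below 0.

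Mx1, an interferon-induced antiviral gene, was looked at after its values were seen, because its promoter peak had the smallest adjusted p of the whole table, 0.0506, at 12.7 and 30.3 CPM. Its flank peak at -3842 bp did not share that difference in size. It stood at 2.21, 3.16 and 3.13 CPM in wildtype and 3.07, 2.64 and 3.67 CPM in knockout, overlapping, with a log2 fold change of 0.14 ± 0.29 (adjusted p = 0.937).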

How the data were processed

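The data were ATAC-seq read counts from 3 wildtype and 3 Mel18 knockout mice, grouped by the genotype in the labels. The submitters' processing notes list the build mm10 and these tools in no stated order: Bowtie2 1.2.2, MACS2 2.1.1, Trimmomatic 0.40, Picard, MultiQC 0.11.5 and FastQC, versions as printed there. For read counting, Tn5 shift, duplicates and the joining of peaks, which could move the counts, the method was not given in the sources used here. Per the file headers, the deposited table holds raw counts per peak and library and the authors' log2 fold change, p-value and adjusted p-value; the authors' values are used only where named. A distance below 0 was checked to mean upstream for all 109859 peaks. Libraries are numbered per genotype in the table and not tied to a mouse. It has 12 further columns of per-library values, left unused. The libraries come from separate mice. Peak reads per library ran from 12000808 to 16709921, which limits weak peaks to few reads.

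All peaks were fitted together by the quasi-likelihood method of edgeR 4.0.16 under R 4.3.3 (robust, TMM, filterByExpr, which kept all 11710 flank peaks), with Benjamini-Hochberg adjustment over 109859 peaks and a threshold of 0.05. Adjusted p-values are from this test unless another is named. The SE is the absolute log2 fold change over the root of F, and CPM uses TMM library sizes. Trended normalization used loess offsets (span 0.3, prior count 2). Alternatives were DESeq2 1.42.0, limma-voom (limma 3.58.1), other scalings, filters and distance windows, and leaving out each library. On simulated data for this comparison (107872 peaks, of which 67, 67 and 66 flank peaks changed by 1.5-, 2- and 4-fold), the test called 1.49%, 10.4% and 84.8% of them, with 10 false calls.

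Named peaks were, on each side, the 5 with the smallest p in each direction and the 3 with the highest mean CPM, at most 1 a gene; the smallest p of each of 15 gene lists; all flank peaks of 10 blood regulator genes; and the peaks at the edges of the distance rule. The other peaks of the T and NK cell and AP-1 lists, the Mx1 peak and the comparison over RefSeq starts were chosen after their values were seen. The members and the lists were chosen with earlier results of these data known. Not every named peak is described. RefSeq tables of GRCm38.p6 gave biotypes (7292 of 7601 gene symbols found) and start windows (32851).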

Additional observations from a re-analysis of the deposited data

How the results depend on the processing

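The count of flank peaks past the adjusted threshold was 0 with library size alone, trended normalization, no filter, a mean CPM of at least 1, DESeq2's Wald test and both narrower windows. It was 12 with DESeq2 size factors, 6 with limma-voom and 0 to 199 when 1 library was left out. The highest was without wildtype library 3, and adding trended normalization to that, an alternative chosen after seeing the data, gave 9. The count of lower peaks at an unadjusted p under 0.05, 329, became 121 with library size alone, where all peaks had 2988 lower, against 6558 as reported. It was 209 in the 1 to 3 kb window and 196 in the 2 to 5 kb window, which hold fewer peaks. By 1 kb bin, 1.84% to 3.72% of flank peaks were lower. When 1 library was left out it was 182 to 787, where all peaks had 4491 to 9465 lower. The count of higher peaks, 358, became 762 with library size alone, where all peaks had 7163 higher, against 3409 as reported. It was 205 and 238 in those windows, and 2.47% to 3.64% of flank peaks were higher by 1 kb bin. When 1 library was left out it was 154 to 678, where all peaks had 1783 to 6245 higher. In DESeq2's Wald test it was 212, where all peaks had 2101 higher. With library size alone the medians were 0.16 upstream and 0.15 downstream, beside 0.14 for all peaks; leaving out 1 library gave 0.023 to 0.057 upstream and 0.0046 to 0.045 downstream, and the combined setting 0.021 upstream. The knockout minus wildtype difference in the share of peak reads upstream was 0.227 percentage points, and 0.169 to 0.292 without 1 library. It was 0.128 in the 1 to 3 kb window, which held a smaller share of reads. That share was 2.26% in wildtype and 2.39% in knockout, against 3.73% and 3.96% for the whole upstream flank. For the downstream share it was 0.174 to 0.336 and for flank reads per 100 promoter reads 2.82 to 5.09 without 1 library. For single peaks, 774 of 846 values over 64 peaks and 14 settings kept direction and side of the threshold, 42 passed where the reported fit did not, and 30 changed sign, at 14 peaks. With library size alone the sign changed for Meis1 (0.025) and Gfi1b at 4874 bp (0.017), and with limma-voom for Gfi1b at 4874 bp (0.077). With trended normalization it changed for Zbtb18 (0.017), Per1 (0.076), Arrdc3 (0.099), Crlf2 (0.16), Jund (0.21), Tal1 at 4957 bp (-0.043) and Nr4a3 (0.064). Without 1 library, the combined setting included, Zbtb18 ran from -0.39 to 0.0093, Arrdc3 from -0.32 to 0.080, Crlf2 from -0.38 to 0.017, Jund from -0.23 to 0.19, Nr4a3 from -0.32 to 0.021 and Fosb from -0.36 to 0.0050. The range was -0.87 to 0.22 for Gata1 at -3557 bp, -0.12 to 0.42 for Spi1 at 1584 bp, -0.19 to 0.00078 for Meis1, -0.082 to 0.30 for Gfi1b at 2949 bp, -0.498 to 0.55 for Gfi1b at 4874 bp, -0.13 to 0.200 for Tal1 at 4957 bp and -0.044 to 0.24 for Mx1. The cause of these shifts was not tested. The 196 flank peaks sharing at least 1 base with a RefSeq start window had a median of -0.11 with 27 lower. No paired analysis was possible because the mice are numbered across both groups and the count columns show only the group.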

Other observations

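The outer edge of the flank did not mark a change in the number of peaks towards fewer. The last 500 bp before 5 kb held 578 peaks upstream and 600 downstream, and the first 500 bp beyond it held 642 and 669. The medians of the log2 fold change there were 0.04 and 0.07 inside and 0.06 and 0.02 outside.

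Flank peaks nearest to a miRNA gene, 442 in number, touched an intron in 64.9% of cases, against 54.2% of the 9849 nearest to a protein-coding gene. Their median level was 3.97 CPM and their median log2 fold change -0.01, against 4.14 CPM and 0.03.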
